A study of Danio rerio with 23 samples.

Results

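Transcript levels of 10 genes of acute inflammation were followed in bulk RNA-seq libraries of zebrafish retinae after light-induced retinal damage (LIRD): the cytokines il1b, tnfa and tnfb, the chemokine cxcl8a, the collagen-cutting proteases mmp9 and mmp13a, the neutrophil enzymes mpx and lyz, irg1l and ptgs2a. They are the rows of the count table whose symbols match these 10 names, upper and lower case alike, among 25281 genes. A symbol matched 1 identifier for 8 of the 10. The name ptgs2a was met only as PTGS2, which 2 identifiers share, so both are reported and which of them is ptgs2a was not resolved. No row carried the name mpx, and no value is given under it.

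Larvae were exposed to light at 4 days post-fertilization (dpf), at 50000 lux for 3.5 h, and recovered in the dark for 48 h before dissection, in the methods of the study, and each library came from a pool of 50 retinae. The sample labels, which give standard lighting for CTRL, differ: their LIRD fish are adults lit at 15000 lux over 24 h and dissected at once, they count 10 to 11 animals in a group, and they mention no pools. Age, dose and delay after the light therefore rest on the methods, and the labels name no allele, transgene or drug for either group. The methods list wild-type TU fish and a fli:gal4;UAS:mCherry reporter line without saying which gave these libraries. The table held 9 CTRL and 8 LIRD libraries, each 1 sequencing library of poly(A)+ RNA, and 6 further samples in the labels were not analysed here. The methods state that samples lying away from their replicates in a principal component analysis were left out.

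Interleukin 1 beta and the tumour necrosis factors (TNF) are released by macrophages, microglia and injured tissue, and switch on NF-kB in the cells that receive them. Cxcl8 draws neutrophils to a wound through the receptors Cxcr1 and Cxcr2. Neutrophils carry lysozyme and myeloperoxidase (Mpx) in their granules, and Mmp9 and Mmp13 open the matrix during leukocyte entry and repair. In the injured adult zebrafish retina, TNF from dying neurons is known to help Müller glia re-enter the cell cycle, and microglia and other leukocytes shape that response.

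Libraries held 70932504 to 144932681 counts in CTRL and 97506021 to 150347385 in LIRD, so differences between libraries, not counting error, limited most of the genes below, with tnfa and other genes of few counts as exceptions. Levels are CPM, the counts as a share of the library total scaled up to a common size and corrected by TMM factors, and they compare libraries within a gene, not genes with each other. Markers of photoreceptors summed to 19150 to 32130 CPM in CTRL and 19660 to 39890 CPM in LIRD, and markers of Müller glia and inner retina neurons were present in every library, as the label retina requires. Those of inner retina neurons summed to 2309 to 2929 CPM in CTRL and 1811 to 2990 CPM in LIRD. Markers of skin epidermis (7280 to 22470 CPM), liver and acute phase (4956 to 13530 CPM) and exocrine pancreas (501.3 to 6632 CPM) were also present in every library. Liver and acute phase genes share a list, called liver markers below, and its sum does not tell them apart. In pools of whole tissue, more cells of a type and more RNA per cell cannot be told apart. CTRL replicates 3 and 11, and LIRD replicates 5 and 11, stood apart as nearly alike pairs. The median chi-square of their counts was 3.71 and 1.84 times counting noise, against 11.43 times for the next CTRL pair and 21.07 times for the next LIRD pair. They differed by more than sampling noise and were kept as separate libraries, and values with each pair added up are given below. The SDs, fits and permutation tests over all libraries thus count them as independent, which was not tested. Library numbers formed 2 series, S7 to S10 for replicates 1 and 2 of each condition and S11 and later for the rest. What separates the series is not given in the sources used here.

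The first question was whether any of these genes differed between LIRD and CTRL retinae. None passed the thresholds of the study, a fold change of over 1.5 in either direction and a false discovery rate (FDR, the Benjamini-Hochberg adjusted p over all genes) under 0.05. With edgeR, 0 of the 7 genes that matched by symbol and passed the low-count filter were called, against 9 of 22503 genes (0.0400%). Likewise 0 were called with DESeq2, which called 0.330% of all genes, and 0 with limma-voom, which called 15 of 22503 genes. At an unadjusted p under 0.05 the edgeR test gave 2 of the 7, lyz and mmp13a, where 7.64% of all genes reached that level. All 7 fold changes lay above 0, as did 53.7% of all genes tested. Their median was 0.59 on the log2 scale, against 0.0167 over all genes. In 0 of the 7 were the LIRD and CTRL libraries apart without overlap, which 0.0711% of all genes showed. Each gene is described in turn, cytokines first.

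**Figure D1:**
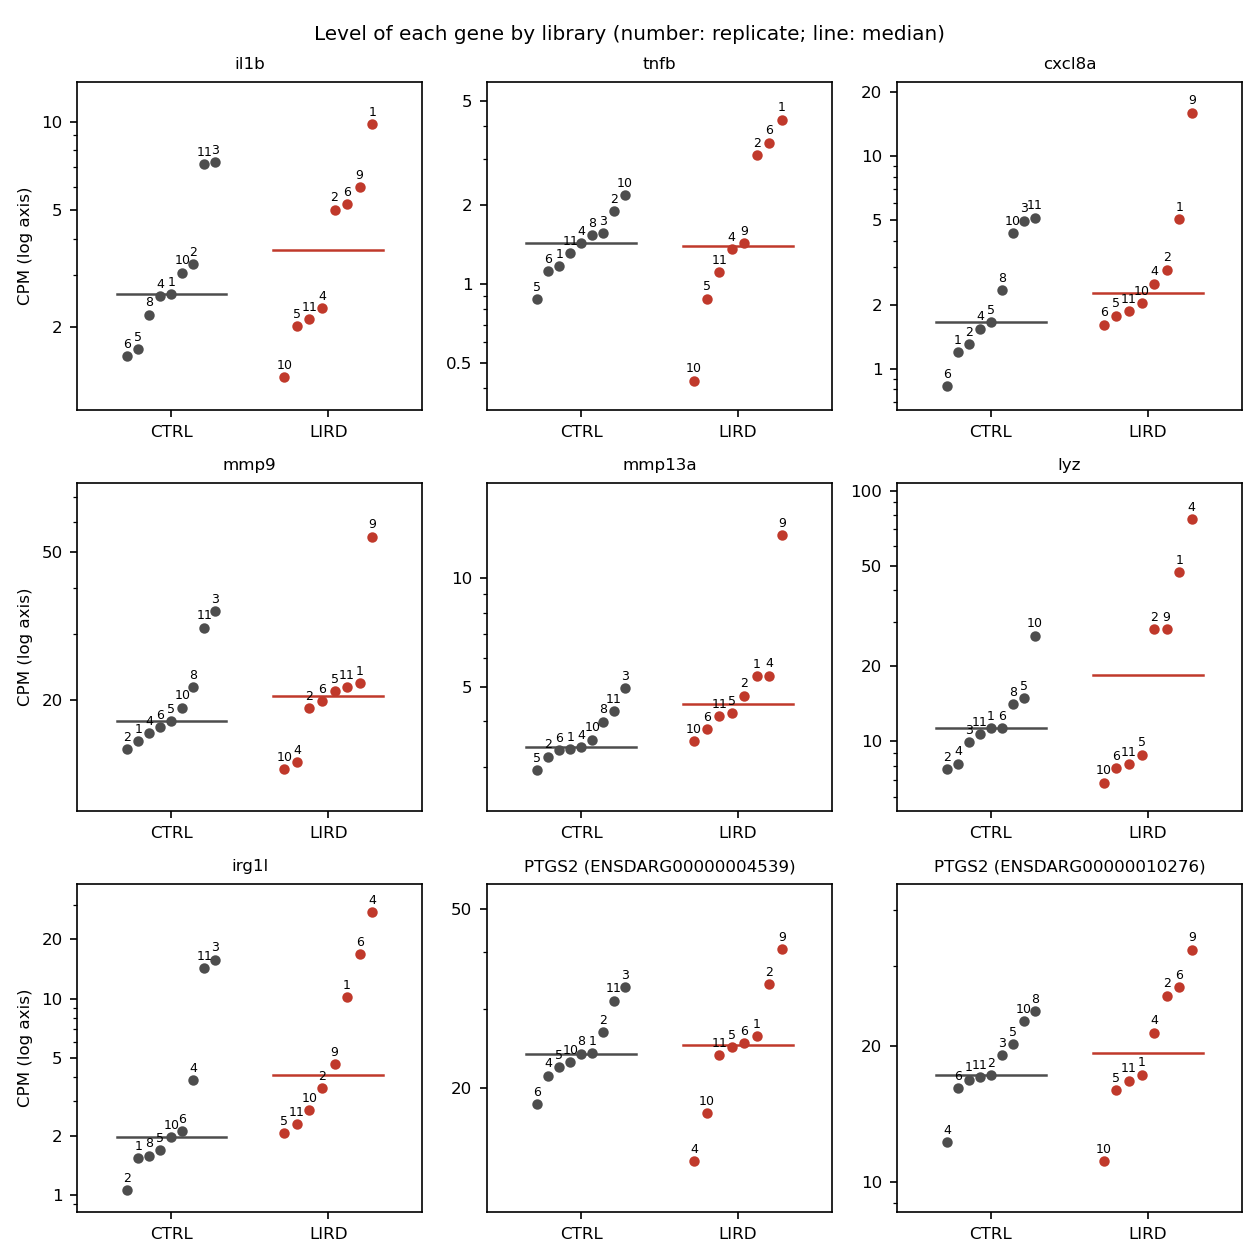
CPM (log axis) of each gene in every library, with CTRL in grey, LIRD in red, replicate numbers above the points and a line at the median of each group; tnfa is left out because 2 libraries had no count. The groups overlap in all 9 panels, and single libraries reach far above the rest, such as LIRD 9 at 16.05 CPM for cxcl8a.

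The cytokine il1b (ENSDARG00000098700) encodes interleukin 1 beta and was measured by RT-qPCR as an inflammatory marker in the study's other experiments. There the paper reports higher il1b after LIRD than in controls, with no reduction by the antioxidant N-acetylcysteine. Its level ran from 1.59 CPM through a median of 2.59 to 7.30 CPM in CTRL, and from 1.35 through 3.67 to 9.80 CPM in LIRD. The LIRD libraries fell into a higher set, replicates 1, 9, 6 and 2 at 9.80, 5.98, 5.26 and 5.03 CPM, and a lower set of 4 at 1.35 to 2.32 CPM. The nearly alike CTRL replicates 3 and 11 stood at 7.30 and 7.18 CPM, above 7 of the 8 LIRD libraries. Means were 3.49 ± 2.20 CPM (SD, n = 9) in CTRL and 4.24 ± 2.86 CPM (SD, n = 8) in LIRD. The log2 fold change was 0.28 (SE 0.40, edgeR FDR = 0.81), and its 95% limits (normal approximation to the fitted value) span 0.71-fold to 2.08-fold. The exact permutation test over libraries (two-sided, 24310 relabelings) gave p = 0.640. The sign rested on single libraries: without LIRD replicate 1 the log2 fold change was -0.03, and without CTRL replicate 3 it was 0.49. With the nearly alike pairs added up it was 0.58 (SE 0.40, FDR = 0.68).

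The tumour necrosis factor gene tnfa (ENSDARG00000009511) was close to the limit of detection. It had 0 to 13 counts per library, 28 in all 9 CTRL libraries and 30 in all 8 LIRD libraries. Only 6 of 17 libraries had more than 3 counts, and the filter on low counts left it out of the test over all genes. The highest counts were 13 in LIRD 1 and 7 in CTRL 4. LIRD 10 and 11 had 0 counts, which allows a level of up to 0.0252 and 0.0269 CPM at a floor of 3 counts, for counting error only. In a fit that kept every gene with at least 1 count, the log2 fold change was 0.25 (SE 0.61, edgeR p = 0.685). No difference was detected, and a small one could not be seen at this depth.

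The related gene tnfb (ENSDARG00000013598), a second zebrafish TNF, was counted 51 to 534 times per library. CTRL libraries lay at 0.874 to 2.18 CPM (median 1.43 CPM), and LIRD libraries at 0.429 to 4.23 CPM (median 1.39 CPM). LIRD replicates 1, 6 and 2, at 4.229, 3.463 and 3.096 CPM, stood above every CTRL library. LIRD 10, at 0.429 CPM, stood below every CTRL library. The medians were thus nearly equal, while the coefficient of variation (CV) was 27.7% in CTRL and 69.6% in LIRD. A larger CV in LIRD was common to 84.9% of all genes tested and to 6 of the 7 genes here, irg1l being the exception. The log2 fold change of tnfb was 0.46 (SE 0.35, FDR = 0.70), with an exact permutation p of 0.688 for the difference of mean log2 CPM. Without LIRD 1 the fold change fell to 0.21.

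The chemokine cxcl8a (ENSDARG00000104795), a ligand for Cxcr1 and Cxcr2, ran from 0.828 through a median of 1.65 to 5.13 CPM in CTRL. In LIRD it ran from 1.61 through 2.28 to 16.1 CPM. LIRD 9 held the highest level, 16.05 CPM, followed by CTRL 11 at 5.13, LIRD 1 at 5.07, CTRL 3 at 4.98 and CTRL 10 at 4.35 CPM. The CTRL median was passed in 7 of 8 LIRD libraries, yet only LIRD 9 exceeded every CTRL library. The log2 fold change was 0.70 (SE 0.49, FDR = 0.70), a 1.63-fold higher fitted level with limits of 0.83-fold and 3.18-fold. Without LIRD 9 it was -0.03, so the fitted difference rested on that library.

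Its paralog cxcl8b.1 (ENSDARG00000102299) had the same extreme library, with 13.55 CPM in LIRD 9 against 0.531 to 2.81 CPM in CTRL and 0.576 to 2.44 CPM in the other LIRD libraries. Its log2 fold change was 0.71 (SE 0.55, FDR = 0.70). The third paralog, cxcl8b.3 (ENSDARG00000099169), was at 1.54 CPM in LIRD 9, below the CTRL median of 2.10 CPM, and its log2 fold change was -0.09 (SE 0.21). LIRD 9 was therefore high in 2 of the 3 cxcl8 genes.

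The gelatinase gene mmp9 (ENSDARG00000042816, listed as MMP9) was counted 1088 to 5218 times per library. CTRL libraries ranged from 14.8 to 34.6 CPM around a median of 17.5 CPM, and LIRD libraries from 13.02 to 54.9 CPM around a median of 20.5 CPM. LIRD 9 at 54.85 CPM, CTRL 3 at 34.6 and CTRL 11 at 31.2 CPM were the 3 highest. The other 14 libraries lay between 13.02 and 22.2 CPM whatever their group. Fitted as above, the log2 fold change was 0.15 (SE 0.26, FDR = 0.84), with limits of 0.78-fold and 1.57-fold. Without LIRD 9 it was -0.16.

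The collagenase gene mmp13a (ENSDARG00000012395) had the smallest p of the 7 genes. Its CTRL libraries were tight, 2.93 to 4.94 CPM around a median of 3.39 CPM (CV 17.2%). In all 8 LIRD libraries the level was above that median, at 3.52 to 13.1 CPM (median 4.47 CPM). LIRD 9 reached 13.13 CPM, LIRD 4 and LIRD 1 followed at 5.36 and 5.34 CPM, and these 3 exceeded every CTRL library. This gave a log2 fold change of 0.59 (SE 0.22, 1.51-fold with limits of 1.12-fold and 2.03-fold), with edgeR p = 0.0148 and FDR = 0.51. The exact permutation test gave p = 0.0142, unadjusted for the number of genes. Without LIRD 9 the log2 fold change fell to 0.28 (SE 0.12, edgeR p = 0.0371, FDR = 0.61). It was 0.64 (SE 0.18) in replicates 1 and 2 alone and 0.59 (SE 0.28) in replicates 3 and above alone, which include LIRD 9.

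Among the other matrix metalloproteinases (MMPs), mmp13b (ENSDARG00000100794), the paralog of mmp13a, was low, at 0.219 ± 0.0813 CPM (SD, n = 9) in CTRL and 0.167 ± 0.0586 CPM (SD, n = 8) in LIRD, with a log2 fold change of -0.38 (SE 0.26). MMP2 (ENSDARG00000017676), the other gelatinase, had 117 ± 11.05 CPM (SD, n = 9) and 123 ± 25.1 CPM (SD, n = 8), and a log2 fold change of 0.07 (SE 0.11). In a list of MMPs and their inhibitors, the TIMPs, 26 genes were tested and 0 were called, with 1 higher (mmp13a) and 1 lower (mmp20b, -0.28, SE 0.13) at an unadjusted p under 0.05. The list's median log2 fold change was -0.07, and 7.64% of all genes tested had an unadjusted p under 0.05.

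The lysozyme gene lyz (ENSDARG00000057789), a granule enzyme and standard neutrophil marker in zebrafish larvae, had the second smallest p of the 7. Its level was 7.75 to 26.4 CPM in CTRL (median 11.3 CPM) and 6.84 to 76.9 CPM in LIRD (median 18.5 CPM). LIRD libraries split evenly, with replicates 4, 1, 9 and 2 at 76.9, 47.1, 28.1 and 28.1 CPM above every CTRL library. The other 4, replicates 5, 11, 6 and 10, lay at 6.84 to 8.85 CPM, below the CTRL median. Only CTRL 10, at 26.4 CPM, came near the higher LIRD set. Means were 12.7 ± 5.65 CPM (SD, n = 9) in CTRL and 26.5 ± 24.9 CPM (SD, n = 8) in LIRD. The log2 fold change was 1.06 (SE 0.45, 2.08-fold with limits of 1.14-fold and 3.81-fold), with edgeR p = 0.0284 and FDR = 0.60, and the exact permutation test gave p = 0.242. With limma-voom it was 0.58 (p = 0.210). Without LIRD 4 it was 0.60, and without CTRL 10 it was 1.27.

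The 4 LIRD libraries high in lyz were also above every CTRL library in npsn and nccrp1. The 7 further genes of the neutrophil marker list that have a row, among them npsn (a granule protease), nccrp1, NCF1 (a subunit of the oxidase) and CSF3R (the receptor for the granulocyte growth factor), summed to 32.6 to 45.1 CPM in CTRL. In LIRD the sum was 93.6 CPM in replicate 4, 68.8 in replicate 1, 54.5 in replicate 2 and 53.9 in replicate 9, all above every CTRL library, and 31.5 to 37.2 CPM in the other 4. The sum consisted mainly of npsn, nccrp1 and NCF1, while CSF3R and cxcr1 were highest in LIRD 6, a library low in lyz, and cebp1 was lowest in LIRD 1. The neutrophil list had 9 genes with a row, 8 of them tested, of which 0 were called. An unadjusted p under 0.05 was reached by 7.64% of all genes. At that level 4 genes of the list were higher in LIRD (lyz and mmp13a themselves, npsn and NCF1) and 0 lower. None of its rows was at 3 counts or fewer in every library, and mpx and lect2l had no match. The gene npsn (ENSDARG00000010423) itself ranged from 11.7 to 17.8 CPM in CTRL and reached 56.5 CPM in LIRD 4 and 28.8 CPM in LIRD 1.

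LIRD 1 and LIRD 4 were also the highest libraries for markers of several other cell types. Erythroid markers summed to 1381 CPM in LIRD 1 and 1232 CPM in LIRD 4, against 262 to 513 CPM in CTRL. Liver and acute phase markers summed to 13530 CPM in LIRD 1 and 11570 CPM in LIRD 4, against 4956 to 8239 CPM in CTRL. Macrophage and microglia markers summed to 782 and 705 CPM against 413 to 607 CPM. LIRD 9, the third of the high-lyz libraries, had 693 CPM of erythroid and 8728 CPM of liver markers, and LIRD 2 had 500 and 6923 CPM, within the CTRL range. Libraries low in lyz also exceeded every CTRL library, with 9113 and 8969 CPM of liver markers in LIRD 5 and 11 and 575.5 CPM of erythroid markers in LIRD 6. Some sums divided the LIRD libraries as lyz did. In LIRD 1, 2, 4 and 9 against the other LIRD libraries, skin epidermis was at 14730 to 22470 against 7280 to 10770 CPM. Müller glia was at 4385 to 5159 against 3007 to 3701 CPM. Macrophages and microglia were at 593.9 to 781.5 against 500.5 to 541.5 CPM. Photoreceptors were at 29490 to 39890 against 19660 to 29190 CPM. These higher sets overlapped the CTRL ranges. CTRL 10 had the highest skin sum in CTRL, 17240 CPM. Other sums were lower. Thrombocyte markers were below the CTRL range of 459.7 to 644.3 CPM in LIRD 1, 4, 2 and 9. Their sums there were 362.5, 399.6, 402.8 and 456.4 CPM, against 881.2 and 885.8 CPM in LIRD 5 and 11. Inner retina neuron markers summed to 1811, 1828 and 2149 CPM in LIRD 1, 4 and 2. They were at 2814 CPM in LIRD 9 and 2309 to 2929 CPM in CTRL. The part of these markers in the lyz result was not tested.

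**Figure D2:**
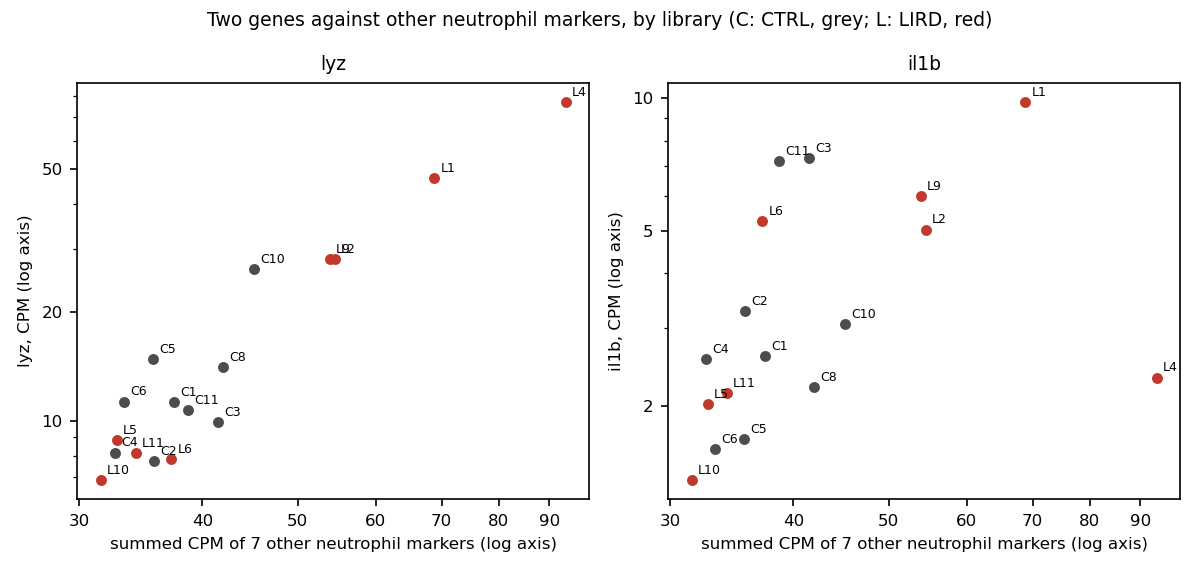
Level of lyz (left) and il1b (right) in CPM against the summed CPM of 7 neutrophil markers outside the 10 genes, both on log axes, with 1 point per library (CTRL grey, LIRD red). The 4 LIRD libraries with a marker sum of 53.9 to 93.6 CPM have lyz above every CTRL library, whereas il1b is at 2.32 CPM in LIRD 4, which has the highest sum.

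A pair of peroxidase genes carries the symbol of eosinophil peroxidase and is given under that symbol although it falls outside the naming rule. Whether either row is the gene known as mpx was not resolved. EPX (ENSDARG00000019521) was at 11.9 to 22.3 CPM in CTRL and 13.9 to 60.7 CPM in LIRD, with LIRD 4 again highest. Its log2 fold change was 0.46 (SE 0.23, edgeR FDR = 0.67). The lower-case epx (ENSDARG00000012535) was at 0.420 to 0.942 CPM in CTRL and 0.262 to 0.940 CPM in LIRD, with a log2 fold change of -0.33 (SE 0.24).

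The gene irg1l (ENSDARG00000062788) is named for its relation to immunoresponsive gene 1, whose product in mammalian macrophages makes the antimicrobial metabolite itaconate. Its CV in CTRL was the largest of the 7. CTRL libraries ranged from 1.06 through a median of 1.97 to 15.8 CPM (CV 119.3%), and LIRD libraries from 2.06 through 4.07 to 27.5 CPM (CV 105.0%). LIRD replicates 4, 6 and 1 were at 27.5, 16.9 and 10.2 CPM, and CTRL 3 and 11 at 15.8 and 14.3 CPM. The other 7 CTRL libraries did not exceed 3.86 CPM, and the CTRL median was passed in all 8 LIRD libraries. On the log2 scale the fold change was 0.84 (SE 0.65, FDR = 0.70), with an exact permutation p of 0.193. It was 1.4 (SE 0.65, p = 0.0456, FDR = 0.68) with the nearly alike pairs added up and 0.31 without LIRD 4.

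ACOD1 (ENSDARG00000069844), listed as the itaconate enzyme itself, was at 0.320 to 2.62 CPM in CTRL and 0.355 to 2.09 CPM in LIRD. Its 2 highest libraries were CTRL 11 and CTRL 3, at 2.62 and 2.21 CPM, followed by LIRD 6 at 2.09 CPM. Its fitted log2 fold change was -0.01 (SE 0.45). This gene too falls outside the naming rule.

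Ptgs2 (COX-2) makes the precursor of the prostaglandins, and Ptgs1 is its constitutive relative. The PTGS2 row ENSDARG00000004539 was at 18.4 to 33.4 CPM in CTRL (median 23.8 CPM) and 13.8 to 40.6 CPM in LIRD (median 24.9 CPM), with a log2 fold change of 0.05 (SE 0.17, limits of 0.82-fold and 1.31-fold). The PTGS2 row ENSDARG00000010276 was at 12.3 to 23.9 CPM in CTRL (median 17.2 CPM) and 11.14 to 32.6 CPM in LIRD (median 19.3 CPM), with a log2 fold change of 0.19 (SE 0.18, limits of 0.90-fold and 1.46-fold). LIRD 9 was the highest library for both, at 40.6 and 32.6 CPM, and LIRD 10 was among the lowest 2 for both. The gene ptgs1 (ENSDARG00000052148) was steadier, at 8.76 ± 0.709 CPM (SD, n = 9) in CTRL and 9.36 ± 1.72 CPM (SD, n = 8) in LIRD, with a log2 fold change of 0.10 (SE 0.11).

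Downstream of these enzymes, 2 prostaglandin D2 synthase genes were the only called genes of the 8 lists described here. ptgdsb.1 (ENSDARG00000027088) was at 55.0 to 139.8 CPM in CTRL and 258.8 to 532.3 CPM in LIRD, so that none of the 8 LIRD libraries overlapped CTRL. The fitted log2 difference was 1.94 (SE 0.19, edgeR FDR = 0.00015). ptgdsb.2 (ENSDARG00000071626) rose from 103 ± 20.9 CPM (SD, n = 9) to 201 ± 61.9 CPM (SD, n = 8), a log2 fold change of 0.96 (SE 0.17, edgeR FDR = 0.0400). Reads of near-identical copies can be shared, so the split between these paralogs is uncertain. The prostaglandin and leukotriene list as a whole had 38 tested genes and a median of 0.10. At an unadjusted p under 0.05, which 7.64% of all genes reached, 5 of its genes were higher and 1 lower. One of these was an ALOX5 row (ENSDARG00000043085), a leukotriene-forming lipoxygenase, at 0.721 ± 0.412 CPM (SD, n = 9) in CTRL and 1.55 ± 1.18 CPM (SD, n = 8) in LIRD.

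**Figure D3:**
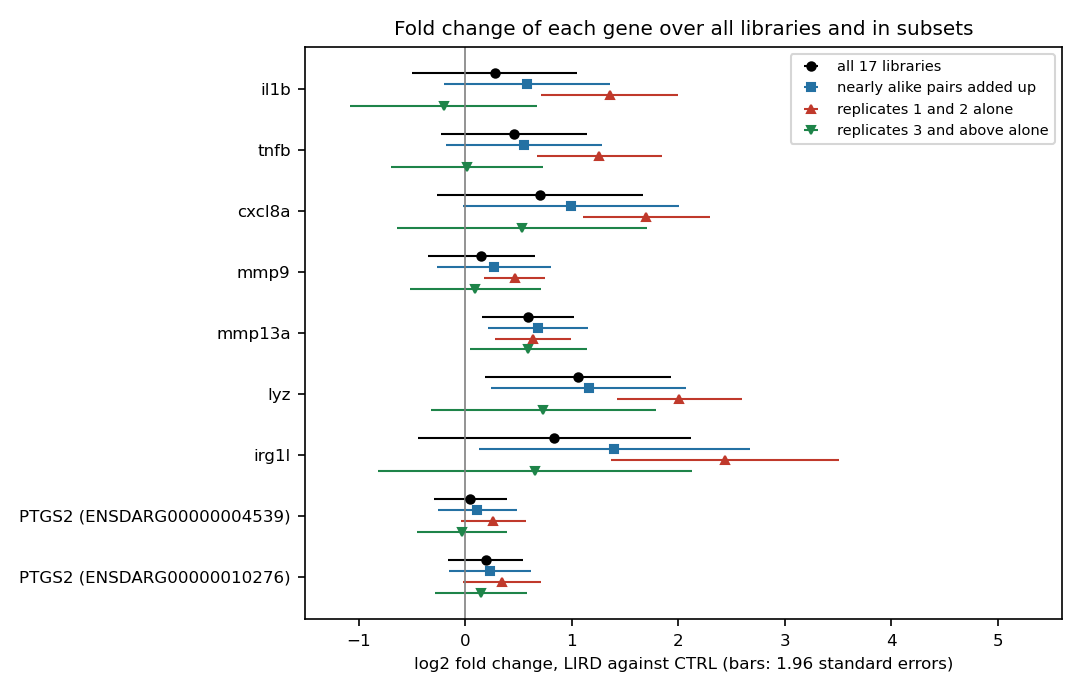
Log2 fold change of LIRD against CTRL for the 7 genes and both PTGS2 rows, with bars of 95% normal limits, over all 17 libraries (black), with nearly alike pairs added up (blue), in replicates 1 and 2 alone (red) and in replicates 3 and above alone (green). For il1b the red point lies at 1.36 and the green point at -0.20, while for mmp13a they lie at 0.64 and 0.59.

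The fold changes depended on which libraries were compared. With the nearly alike pairs added up, none of the 7 genes was called. Log2 fold changes were then 0.55 (SE 0.37) for tnfb, 0.99 (SE 0.52) for cxcl8a and 0.27 (SE 0.27) for mmp9. They were 0.685 (SE 0.24) for mmp13a and 1.16 (SE 0.47) for lyz. Each of these 5 lay above its value over all libraries. In replicates 1 and 2 alone, 2 CTRL against 2 LIRD libraries, edgeR called 6 of the 7 genes higher in LIRD (all but mmp9), and it called 17.2% of all genes. The log2 fold changes there were 1.36 (SE 0.33) for il1b, 1.26 (SE 0.30) for tnfb, 1.70 (SE 0.30) for cxcl8a, 2.01 (SE 0.30) for lyz and 2.44 (SE 0.54) for irg1l. In replicates 3 and above alone, 7 CTRL against 6 LIRD libraries, 0 of the 7 were called, against 4 of 22511 genes (0.0178%). An unadjusted p under 0.05 was reached by 0 of the 7 and by 985 of the 22511 genes. There il1b was at -0.20 (SE 0.45), tnfb at 0.02 (SE 0.36), lyz at 0.73 (SE 0.54) and irg1l at 0.66 (SE 0.75). The difference between the series was itself tested with an interaction term. It passed an FDR of 0.05 for none of the 7 genes and for 0 of 22503 genes (0.00%), although 3776 (16.8%) had an unadjusted p under 0.05. For il1b the difference was 1.54 (SE 0.88, edgeR p = 0.0999, FDR = 0.35). LIRD replicate 1 belongs to the first series. It had the highest liver, erythroid, pancreas and skin marker sums of all libraries. It also had the lowest inner retina neuron and thrombocyte sums, and its markers' part in these values was not tested.

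The next question was whether the 7 genes varied together from library to library. All 21 pairs were positively correlated over the 17 libraries (log2 CPM, median Pearson r of 0.42), and 7 pairs passed a Benjamini-Hochberg adjusted permutation p of 0.05 by Pearson and 4 by Spearman. The highest was cxcl8a with mmp13a, at r = 0.83 (adjusted permutation p = 0.0028) and Spearman rho = 0.81 (adjusted permutation p = 0.0038). Without CTRL 11 and LIRD 9, the 2 libraries farthest from the median of cxcl8a, r was 0.69. Next came cxcl8a with mmp9, at r = 0.81 (adjusted permutation p = 0.0028), rho = 0.66 (adjusted permutation p = 0.0274) and r = 0.55 without those 2 libraries.

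For il1b with tnfb, r was 0.73 (adjusted permutation p = 0.0050) and rho 0.76 (adjusted permutation p = 0.0074), with r = 0.68 without CTRL 3 and LIRD 1. These 3 pairs passed with both measures. With the nearly alike pairs added up, cxcl8a with mmp9 did not pass by Spearman (rho = 0.62, adjusted permutation p = 0.083). Within LIRD alone its r of 0.81 went to -0.39 without LIRD 1 and LIRD 9. Within CTRL alone its r of 0.84 went to 0.64 without CTRL 3 and CTRL 11. The pair mmp13a with irg1l passed by Spearman only (rho = 0.69, adjusted permutation p = 0.0189), with r = 0.40. mmp9 and mmp13a had r = 0.76 (adjusted permutation p = 0.0110), which fell to 0.33 without CTRL 3 and LIRD 9, so that r depended on those libraries. Their rho was 0.59 (adjusted permutation p = 0.051). Within CTRL alone their r was 0.92, and 0.68 without CTRL 3 and CTRL 11. Within LIRD alone it was 0.85, and -0.45 without LIRD 9 and LIRD 10. The other pairs that passed by Pearson over the 17 libraries were il1b with cxcl8a (r = 0.68), mmp9 (r = 0.64) and irg1l (r = 0.59).

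The neutrophil gene lyz passed with none of the other 6 over the 17 libraries by either measure. Its highest r was 0.50 with mmp13a (adjusted permutation p = 0.102), and 0.66 without CTRL 5 and LIRD 9, followed by 0.48 with cxcl8a (adjusted permutation p = 0.105). Within LIRD alone, Spearman's rho of lyz with mmp13a was 0.93 (exact permutation, adjusted p = 0.0234), while r was 0.51 (adjusted p = 0.396 by exact permutation). Over all 17 libraries, taken as deviations from the condition means, a setting chosen after seeing the data, that rho was 0.61 (adjusted permutation p = 0.0435). The r of lyz with il1b was 0.30 (adjusted permutation p = 0.310), with mmp9 0.10 (adjusted permutation p = 0.710) and with irg1l 0.38 (adjusted permutation p = 0.202), falling to -0.10 without LIRD 1 and LIRD 4. By Pearson, 9 of 21 pairs passed within CTRL alone and 2 within LIRD alone, il1b with tnfb (r = 0.89) and cxcl8a with mmp13a (r = 0.95). By Spearman, 0 of 21 passed within CTRL (smallest adjusted p = 0.1275 by exact permutation) and 2 within LIRD, il1b with tnfb and mmp13a with lyz. Without the nearly alike CTRL 3 and 11, the CTRL pairs with il1b or irg1l that had passed by Pearson fell from r of 0.79 to 0.88 to r of -0.25 to 0.43. Those among cxcl8a, mmp9 and mmp13a fell to 0.44 to 0.68. The CTRL pair il1b with tnfb, which had not passed, rose from r of 0.40 to 0.84. With the nearly alike pairs added up, 6 of 21 pairs passed by Pearson over 15 libraries and 3 by Spearman.

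**Figure D4:**
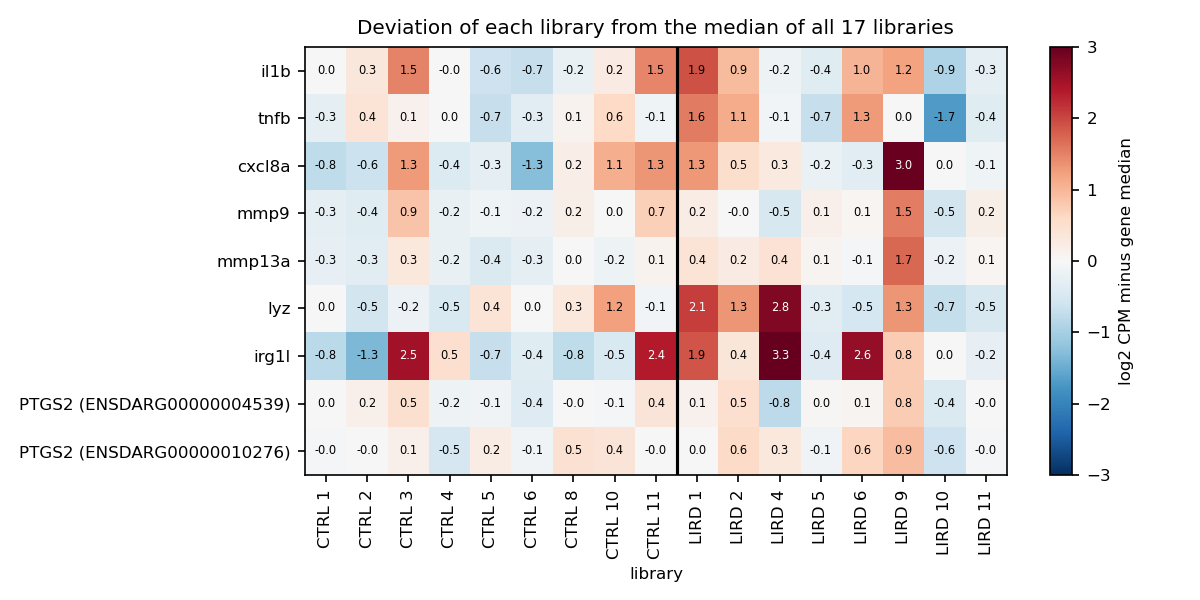
Log2 CPM of each gene in each library minus the gene's median over all 17 libraries (red higher, blue lower; the black line divides CTRL from LIRD). CTRL 3 and 11 are high in il1b, cxcl8a, mmp9 and irg1l, LIRD 9 in cxcl8a, mmp9 and mmp13a, and LIRD 4 in lyz and irg1l but not in il1b.

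The high libraries differed from gene to gene. Among the 3 highest libraries of each gene, LIRD 1 appeared for 5 of the 7, LIRD 9 for 4, and LIRD 4, CTRL 3 and CTRL 11 for 3 each, LIRD 6 for 2 and LIRD 2 for 1. The other 10 libraries appeared for none. LIRD 4 held the highest lyz and irg1l and, for il1b, a level of 2.32 CPM, below the CTRL median. LIRD 9 held the highest cxcl8a, mmp9 and mmp13a, with 16520 CPM of skin epidermis markers, against 9807 to 17240 CPM in CTRL, and the highest sum of Müller glia markers, 5159 CPM against 3231 to 4410 CPM. The part of these markers was not tested.

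As a description, the genes whose log2 CPM followed il1b most closely over the 17 libraries were CH25H (r = 0.94), which makes the antiviral oxysterol 25-hydroxycholesterol, tnfaip2b (r = 0.90), named as a TNF-induced gene, and GPR84 (r = 0.90), a fatty acid receptor of myeloid cells. Their own log2 fold changes were 0.43, 0.11 and -0.03, none of them called. For mmp9 they were histh1l1 (r = 0.93), a linker histone gene, PLIN2 (r = 0.92), which coats lipid droplets, and IRF7 (r = 0.92), an interferon regulatory factor. These values share libraries and depth.

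The 8 lists of related genes were counted with the same test. Beside their counts stand the shares over all 22503 genes, of which 7.64% had an unadjusted p under 0.05 and 0.0400% were called. Among cytokine and chemokine ligands, 41 of the 60 genes with a row were tested, 0 were called, and 9 were higher and 0 lower at an unadjusted p under 0.05, with a median log2 fold change of 0.38. The smallest p belonged to ccl20a.3 (ENSDARG00000101040), a chemokine, at 0.340 ± 0.196 CPM (SD, n = 9) in CTRL and 1.15 ± 1.06 CPM (SD, n = 8) in LIRD, with a log2 fold change of 1.75 (SE 0.50, edgeR FDR = 0.33). The chemokine ccl36.1 (ENSDARG00000105263) followed at 1.04 (SE 0.31). For il12bb (ENSDARG00000054542), a subunit of interleukin 12, the value was 0.79 (SE 0.26), with all 8 LIRD libraries above the CTRL median. Its level was low, at 0.0861 ± 0.0258 CPM (SD, n = 9) in CTRL and 0.152 ± 0.0667 CPM (SD, n = 8) in LIRD.

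Of their receptors, 35 were tested, 0 were called, 5 were higher and 0 lower at an unadjusted p under 0.05, and the median was 0.10. The 3 with the smallest p were cxcr3.2 (0.46, SE 0.16), a chemokine receptor of macrophages in zebrafish, il6r (0.33, SE 0.12) and ccr12a (0.42, SE 0.17). In that order, 7, 5 and 8 of the 8 LIRD libraries were above the CTRL median. In the neutrophil granule, receptor and oxidase list, 30 genes were tested, 0 were called, 10 were higher and 0 lower at that level, and the median was 0.30. Besides mmp13a these included npsn (0.69, SE 0.26) and CORO1A (0.55, SE 0.21), an actin regulator of leukocytes. CORO1A was above the CTRL median in 7 of 8 LIRD libraries and npsn in 4 of 8.

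Among the genes of signaling upstream of il1b and the TNF genes, and of interleukin 1 processing, few had a small p. Of 46 tested genes of Toll-like receptor (TLR) and NF-kB signaling, 0 were called, 1 was higher and 1 lower at an unadjusted p under 0.05, and the median was 0.003. The lower one was TLR7 (ENSDARG00000068812), a sensor of single-stranded RNA, at -0.83 (SE 0.29, edgeR FDR = 0.47), and the higher one was its relative tlr8b (0.56, SE 0.22). NFKBIE, an inhibitor of NF-kB, was at 0.27 (SE 0.14). The inflammasome cuts pro-interleukin 1 beta into its active form. Of the 11 tested genes of the inflammasome and interleukin 1 list, il1b among them, 0 were called and 0 had an unadjusted p under 0.05. The median was 0.06. In that list caspa, an inflammatory caspase of zebrafish, was at 0.25 (SE 0.12), nlrp1 at -0.37 (SE 0.19) and the adaptor pycard at 0.45 (SE 0.25).

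Inflammatory response targets comprised 40 tested genes, of which 0 were called, 10 were higher and 1 lower at an unadjusted p under 0.05, with a median of 0.12. A NOS2 row (ENSDARG00000026925), an inducible nitric oxide synthase, ranged from 0.130 to 0.737 CPM in CTRL and from 0.164 to 8.37 CPM in LIRD. LIRD 4 at 8.37 and LIRD 6 at 3.86 CPM were its highest libraries, 5 of 8 LIRD libraries exceeded every CTRL library, and the log2 fold change was 2.84 (SE 0.67, edgeR FDR = 0.19). The other NOS2 row (ENSDARG00000031976) went the other way, from 0.891 ± 0.198 CPM (SD, n = 9) to 0.628 ± 0.213 CPM (SD, n = 8), with a log2 fold change of -0.50 (SE 0.20, edgeR FDR = 0.56). The name nos2a is met only as NOS2 in the symbols used, so which row it is was not resolved. The complement genes cfb (0.58, SE 0.16) and c4b (0.65, SE 0.19) were above the CTRL median in all 8 LIRD libraries, with edgeR FDRs of 0.29 and 0.34.

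**Figure D5:**
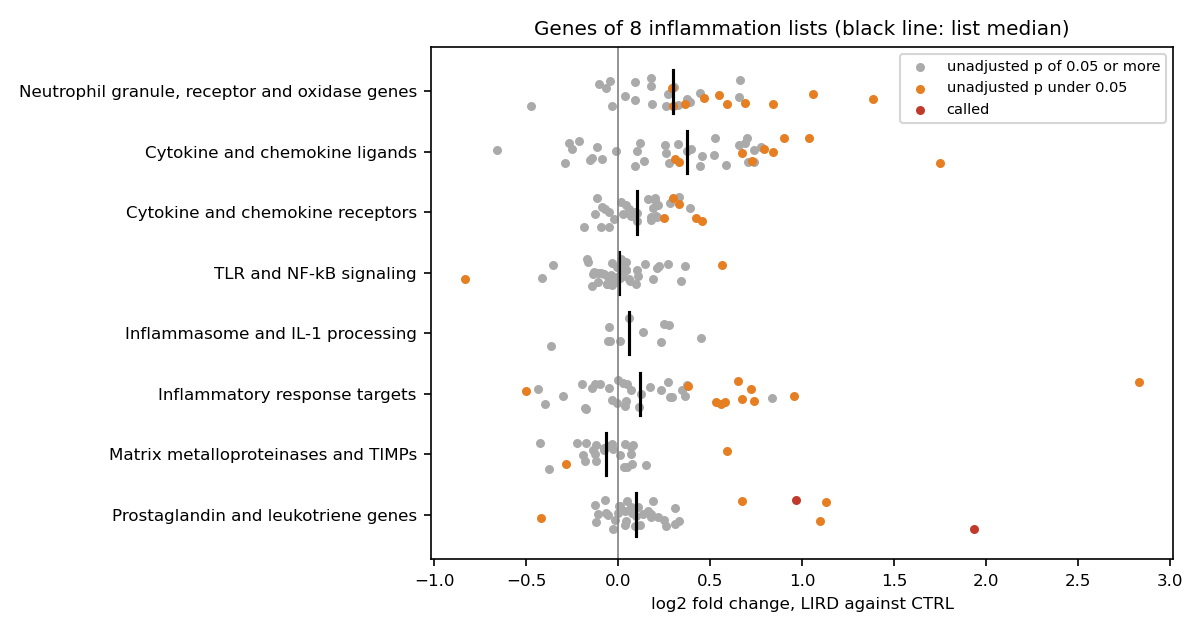
Log2 fold change of LIRD against CTRL for every tested gene of the 8 lists (vertical scatter only separates points), with grey for an unadjusted p of 0.05 or more, orange below it, red for called genes and a black line at each list's median. The ligand and neutrophil lists have medians of 0.38 and 0.30, the TLR and NF-kB list 0.003, and the 2 called genes are ptgdsb.1 and ptgdsb.2.

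Among the marker lists of other cells, 7 of 16 macrophage and microglia and 5 of 9 erythroid genes had an unadjusted p under 0.05. So had 9 of 14 liver and acute phase genes, and all of these were higher in LIRD and none called. For skin epidermis 2 of 17 were higher and 1 lower at that level, for exocrine pancreas 1 of 10 was higher, for photoreceptors 3 of 19 were higher and 5 lower, and for Müller glia 1 of 12 was higher and 1 lower. For lymphocyte (7 tested), thrombocyte (8 tested) and inner retina neuron markers (18 tested) none had such a p. Over all genes tested, 7.64% had an unadjusted p under 0.05. Their part in the values of the 10 genes was not tested.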

How the data were processed

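RNA-seq libraries of 9 CTRL and 8 LIRD zebrafish retina samples were analysed. The authors deposited raw, unnormalized counts of each gene in 1 table: reads were trimmed with Trimmomatic 0.39, aligned with STAR 2.7.9a to GRCz11 and counted on exons with featureCounts (Subread 2.0.1), per the submitters' processing notes, and the study's methods add that counting was strand-specific. Versions in the methods differ in part. Ensembl identifiers were paired with symbols for 23499 of 25281 genes, matching names without regard to case and, where that failed, without the final copy letter. No genome or sequence table was used, so no position or sequence is given.

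The counts were tested with edgeR 4.0.16 in R 4.3.3 (filterByExpr, TMM, quasi-likelihood F test with robust dispersions) over 22503 genes by condition alone, with Benjamini-Hochberg adjustment. CPM and log2 CPM (prior count 2) came from the same fit. A standard error is the fold change divided by the square root of F. Single genes were also compared by exact permutation tests over libraries, two-sided. Correlations used the 7 genes with a mean of at least 1 CPM, with 100000 permutations over all libraries and exact permutations within a condition. Alternatives were DESeq2 1.42.0, limma-voom (limma 3.58.1), upper-quartile factors, other filters on low counts and thresholds, the library series as a covariate or alone, the replicate number as a block, nearly alike pairs added up, a prior count of 0.5 and each library left out in turn. The fits were tested on simulated data. Whether libraries are separate animals or pools rests on the methods alone, so p-values measure the spread between these libraries.

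The 10 genes, the lists and the tests were chosen with earlier results of these data known. Named are the 10 genes, their paralogs, the 3 genes with the smallest p and every called gene of each list, and the 3 genes closest to il1b and to mmp9. Tables and plots were made with Python 3.11.15, pandas 2.3.3, numpy 2.4.6, scipy 1.17.1 and matplotlib 3.10.9.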

Additional observations from a re-analysis of the deposited data

Results flagged for a closer look

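LIRD replicate 9 lay far from the other LIRD libraries for both matrix metalloproteinase genes. For mmp9, its gap to the next library took up 0.63 of the whole range of the 8 LIRD libraries on the log2 CPM scale (54.85 CPM against 22.2 CPM in LIRD 1). For mmp13a, the gap was 0.681 of the range (13.13 CPM against 5.36 CPM in LIRD 4). Both exceed Dixon's critical value of 0.526 for 8 libraries. Of 20 groups of libraries tested, 2 were flagged, and chance flags about 1 in 20.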

How the results depend on the processing

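The number of genes called was 9 with edgeR, and it was 80 with DESeq2, 15 with limma-voom, 14 when at least 10 counts were required in every library, 17 with the library series as a covariate, 5 with nearly alike pairs added up, 3891 in replicates 1 and 2 alone and 4 in replicates 3 and above alone. Leaving out 1 library gave 7 to 39 genes, with 39 without LIRD replicate 10, 14 without CTRL replicate 8 and 13 without LIRD replicate 2. Of the 7 genes with a fit, 6 were called in replicates 1 and 2 alone and 0 in all other alternatives run. Reversed signs were found for il1b in replicates 3 and above alone (-0.20) and without LIRD replicate 1 (-0.0256), for cxcl8a (-0.0292) and mmp9 (-0.16) without LIRD replicate 9, and for mmp9 over the libraries with shared numbers without a block (-0.0095), an alternative added after the data were seen. PTGS2 (ENSDARG00000004539) reversed with limma-voom (-0.0056), in replicates 3 and above alone (-0.0291), with the replicate block (-0.0458), without the block over the same libraries (-0.0136) and without LIRD replicate 2 (-0.0211) or 9 (-0.0778). Over all libraries left out in turn, the log2 fold change ranged from -0.0256 to 0.49 for il1b, 0.21 to 0.61 for tnfb, -0.0292 to 0.89 for cxcl8a, -0.16 to 0.28 for mmp9, 0.28 to 0.67 for mmp13a, 0.60 to 1.27 for lyz, 0.31 to 1.31 for irg1l and -0.0778 to 0.14 for that PTGS2 row. With nearly alike pairs added up, the difference of mean log2 CPM turned from -0.044 to 0.092 for tnfa and from -0.001 to 0.052 for that PTGS2 row. Of 21 pairs of genes, 7 passed by Pearson over all libraries and 2 in LIRD alone. Beyond the construction of each alternative, the cause was not tested.

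CTRL and LIRD share 7 replicate numbers, and the deviations of same-numbered libraries correlated positively for 5 of them (0.176 to 0.416) and negatively for the other 2 (-0.41 and -0.56). Since not every pair was over 0.1, the numbers were not taken as pairing the libraries, and 5 of 14 libraries were closest to their own number. With the replicate block edgeR called 0 genes, while 1328 had an unadjusted p under 0.05, against 4 genes over the same 14 libraries without it. Where depth is the limit, as for tnfa, the alternatives cannot show a small difference.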
